A study of Mus musculus with 14 samples.

Results

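The T cell receptor complex and the enzymes next to it were followed through 10 mouse genes. Cd3d, Cd3e and Cd3g encode the CD3 delta, epsilon and gamma chains, and Cd247 encodes the zeta chain. Cd8a and Cd8b1 encode the chains of the CD8 coreceptor, Lck and Zap70 the proximal kinases, Lat the adaptor that Zap70 phosphorylates, and Thy1 the surface glycoprotein Thy-1. They were chosen by name, with earlier results of these data known, and all were kept whatever their values. All 10 were listed in each of the 3 deposited gene tables, which hold 15319, 19825 and 15216 genes, 13920 of them in common, and all 10 passed the filter of a mean of at least 1 FPKM in every fit.

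The libraries came from CD8+ T cells of E.G7 tumors, a mouse lymphoma line that descends from the T cell line EL4 and makes ovalbumin. RNA-seq was done on 14 libraries, 2 for each of 7 groups, in 3 experiments, with 18309162 to 22322079 counts per library. In the first experiment, Bcl6+, TIM-3+ and DN tumor-infiltrating lymphocytes (TILs) were sorted on day 21 from Bcl6-RFP mice, which report Bcl6 through a red fluorescent protein, and the tumors had been placed under the skin. The labels do not spell out DN, and all 3 TIL groups shared the mouse strain, the tumor and the day. In the second, Prdm1-overexpressing OT-I cells were compared with control cells labelled Prdm1neg, and in the third, Bcl6-overexpressing OT-I cells with control cells labelled Bcl6neg. OT-I cells, used in all 4 OT-I groups, carry a transgenic receptor for an ovalbumin peptide. The genes of the alpha and beta chains of the receptor were not analysed here. Overexpressing and control cells were co-transferred and sorted from tumors about day 8, but the labels tie no replicate number to a host. The labels name no vector, no reporter and no control insert, and give no age of the animals. They do not say that the 2 libraries of a group came from separate animals, so p-values measure only the spread between these samples, which may be technical. In bulk libraries such as these, fewer cells of a type and less RNA per cell cannot be told apart.

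The T cell receptor has no enzyme of its own. Its alpha and beta chains are carried to the surface with the CD3 chains and a zeta pair, whose tails hold tyrosine motifs. When CD8 binds the same MHC class I molecule as the receptor, it brings Lck, which phosphorylates these motifs; Zap70 then docks on them and phosphorylates Lat, which gathers the downstream effectors. In tumors, repeated stimulation through this complex is a known feature of exhausted CD8+ T cells, of which TIM-3 (Havcr2) is a surface marker. Bcl6 is a transcriptional repressor, as is Blimp-1, the product of Prdm1, and each is known to repress the gene of the other.

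In the mm10 genome (GRCm38, GENCODE M21 annotation) the CD3 genes lie side by side. Cd3g spans chromosome 9, 44969572 to 44980431, on the minus strand. Cd3d spans 44981786 to 44987339 on the plus strand, and its start site lies 1355 bp from that of Cd3g. Cd3e spans 44998740 to 45009627 on the minus strand, with its start 27841 bp from that of Cd3d. Thy1 lies on the same chromosome, 44043384 to 44048579 on the plus strand, with its start 937047 bp from that of Cd3g. Cd8b1 (chromosome 6, 71322788 to 71337494) and Cd8a (71373427 to 71379173) are neighbours on the plus strand. The other members lie apart: Cd247 at chromosome 1, 165788681 to 165877277, plus strand; Zap70 at chromosome 1, 36761798 to 36782818, plus strand; Lck at chromosome 4, 129548344 to 129573641, minus strand; Lat at chromosome 7, 126363824 to 126369570, minus strand.

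The promoters of the CD3 cluster are shown because its genes moved furthest of the receptor chains under Bcl6 overexpression, and by unequal amounts. Each window runs 300 bases along the gene's own strand, from 250 bases before the start site to 50 bases from the start site on. The sequences are RefSeq promoters of the build GRCm38.p6 at chr9:44981536-44981835 (Cd3d, plus strand), chr9:45009562-45009861 (Cd3e, minus strand) and chr9:44980382-44980681 (Cd3g, minus strand), and capitals mark every match to the motifs named after them.
Cd3d: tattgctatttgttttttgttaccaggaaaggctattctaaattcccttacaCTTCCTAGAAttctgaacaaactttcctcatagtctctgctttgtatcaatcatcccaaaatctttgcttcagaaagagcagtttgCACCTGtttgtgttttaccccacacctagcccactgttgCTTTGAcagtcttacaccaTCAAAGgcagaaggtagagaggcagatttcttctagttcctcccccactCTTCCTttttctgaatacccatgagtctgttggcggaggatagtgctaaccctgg
Cd3e: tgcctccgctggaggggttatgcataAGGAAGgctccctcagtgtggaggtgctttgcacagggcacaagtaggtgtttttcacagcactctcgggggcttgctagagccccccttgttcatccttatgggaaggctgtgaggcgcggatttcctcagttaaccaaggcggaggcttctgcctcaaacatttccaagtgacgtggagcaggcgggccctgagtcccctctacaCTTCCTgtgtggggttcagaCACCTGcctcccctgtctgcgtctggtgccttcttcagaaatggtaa
Cd3g: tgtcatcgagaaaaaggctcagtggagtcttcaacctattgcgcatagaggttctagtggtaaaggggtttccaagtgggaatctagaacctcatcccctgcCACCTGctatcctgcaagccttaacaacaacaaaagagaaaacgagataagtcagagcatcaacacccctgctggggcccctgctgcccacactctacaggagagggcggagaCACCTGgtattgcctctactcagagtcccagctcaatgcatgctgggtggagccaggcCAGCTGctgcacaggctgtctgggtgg
The motifs were searched on both strands in the 8 of 10 members with a RefSeq promoter (Cd8b1 and Thy1 had none in the table), and matches are descriptions of letters, not of binding. TTCNNNGAA, a core shared by BCL6 and STAT factors, was found in 1 of 8 windows, that of Cd3d, as TTCCTAGAA starting 197 bases before the start site; 8.3% of the 32851 RefSeq windows of this length hold it. That match overlaps one to AGGAAG, an ETS factor motif, which begins 198 bases before the start site on the other strand. AGGAAG was present in 6 of 8 members' windows, against 35.4% of all windows, and was absent from those of Cd3g and Cd8a. CTTTGA, a TCF-1 and LEF-1 motif, occurred in 3 of 8, with matches starting 73 and 54 bases before the start of Cd3d and others in Cd247 and Zap70, against 16% of all windows. CAGNTG, an E protein motif, was in 8 of 8 windows and in 51.4% of all, and TGTGGT, a RUNX motif, was in 2 of 8 (Lck and Lat) and in 16.8% of all. GTGAAAG, a Blimp-1 motif, was in 0 of 8 members' windows and in 4.24% of all windows.

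Among TILs, most genes of the receptor complex were highest in TIM-3+ cells, with Bcl6+ cells at or below the level of DN cells. Against TIM-3+ TILs, 9 of the 10 members were lower in Bcl6+ TILs and none was higher, with Lat not called. Of the 9748 genes tested in this comparison, 38.6% were called, 19.1% higher and 19.6% lower in Bcl6+ TILs. The median log2 fold change was -0.57 over the 10 members and 0.01 over all genes tested. Against DN TILs, 5 of 10 members were lower in Bcl6+ TILs and none was higher, where 14.2% of genes were called (6.49% higher, 7.69% lower) and the medians were -0.17 for the members and 0.00 for all genes. TIM-3+ TILs compared with DN TILs had 8 members higher and 1 lower (Lat), where 28.2% of genes were called (14.9% higher, 13.2% lower) and the medians were 0.52 and -0.01. These comparisons share libraries, so their counts are not independent. Overlap of groups is described below for single members. The share of all genes without overlap was not counted, so it adds nothing to the tests. A gene was called at an adjusted p of 0.05 in edgeR's quasi-likelihood test, taken over all genes tested, and CPM values are counts scaled to a library of 1e6 by TMM.

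**Figure D1:**
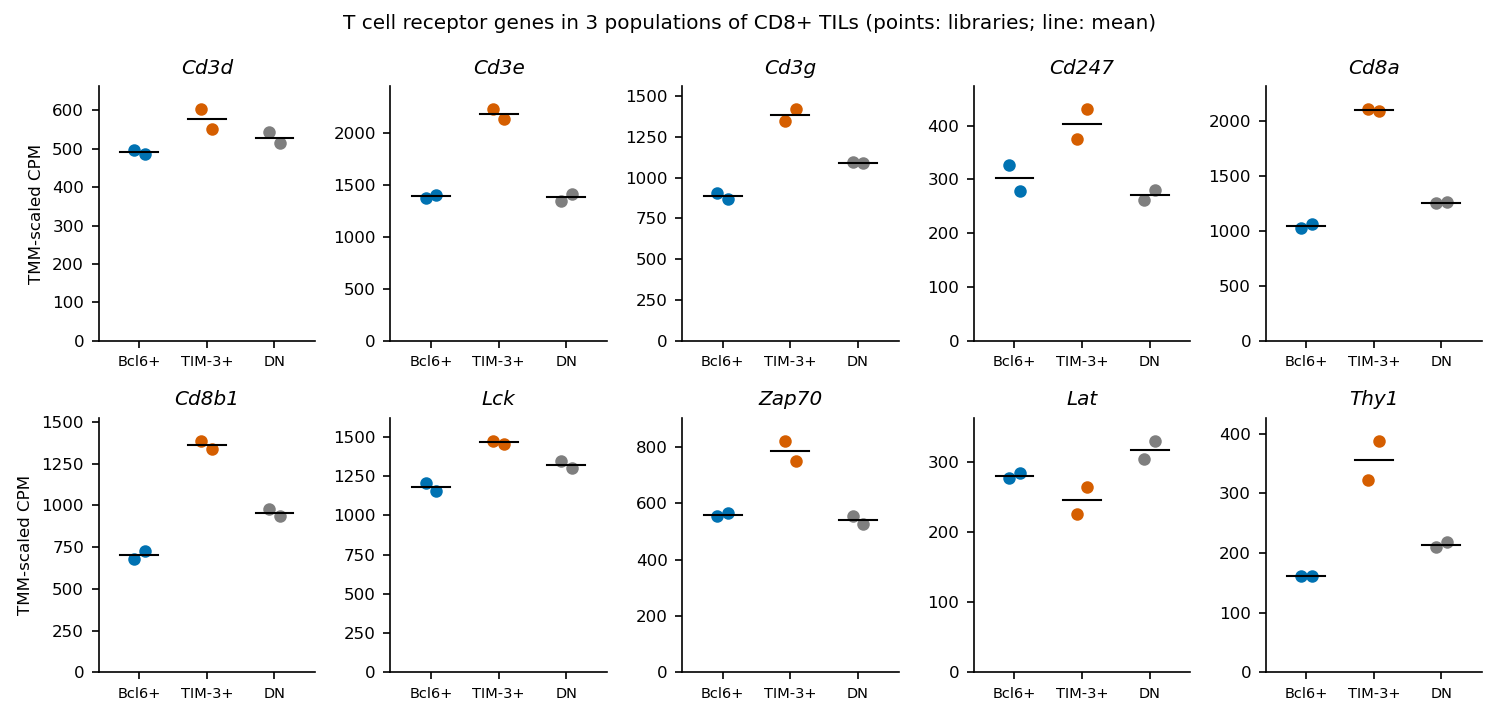
Level of each member in CPM (TMM-scaled, linear axes from 0) in the Bcl6+, TIM-3+ and DN TIL libraries, with 1 point per library and a bar at the group mean. Cd8a, Cd8b1 and Thy1 in TIM-3+ TILs stand far above both other groups, while Lat is lowest there.

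Of the receptor chains, Cd3e measured 1375 and 1397 CPM in Bcl6+, 2224 and 2125 CPM in TIM-3+, and 1344 and 1414 CPM in DN TILs. TIM-3+ libraries stood apart, and the Bcl6+ values lay inside the DN range. The log2 fold change was -0.65 (SE 0.05, edgeR adjusted p = 7.7e-08) for Bcl6+ against TIM-3+, 0.66 (SE 0.05, adjusted p = 1.8e-07) for TIM-3+ against DN, and 0.01 (SE 0.05, adjusted p = 0.95) for Bcl6+ against DN. Cd3g was at 903.4 and 866.2 CPM in Bcl6+, 1346 and 1419 CPM in TIM-3+, and 1096 and 1089 CPM in DN TILs. Unlike Cd3e it had no overlap among the 3 groups, though the share of such genes was not counted. It differed by -0.64 (SE 0.05, adjusted p = 2.1e-07) between Bcl6+ and TIM-3+, by -0.30 (SE 0.05, adjusted p = 8.5e-04) between Bcl6+ and DN, and by 0.34 (SE 0.05, adjusted p = 1.7e-04) between TIM-3+ and DN TILs on the log2 scale.

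Cd3d, which differed least of the CD3 chains, had 496.3 and 487.2 CPM in Bcl6+, 602.8 and 550.6 CPM in TIM-3+, and 543.8 and 514.4 CPM in DN TILs. The groups did not overlap, but they lay close together. Bcl6+ was lower than TIM-3+ by a log2 fold change of -0.23 (SE 0.07, edgeR adjusted p = 0.013), a call that was lost without TIM-3+ replicate 1 (-0.16, adjusted p = 0.13). Neither Bcl6+ against DN (-0.11, SE 0.07, adjusted p = 0.35) nor TIM-3+ against DN (0.12, SE 0.07, adjusted p = 0.18) was called for Cd3d. The zeta chain gene Cd247 had 327.5 and 279.3 CPM in Bcl6+, 375.2 and 430.7 CPM in TIM-3+, and 262.7 and 280.5 CPM in DN TILs. Both TIM-3+ libraries were above all others, and the Bcl6+ and DN ranges overlapped. The log2 fold change of Cd247 was -0.41 (SE 0.09, adjusted p = 0.0026) for Bcl6+ against TIM-3+, 0.57 (SE 0.09, adjusted p = 3.3e-04) for TIM-3+ against DN, and 0.16 (SE 0.09, adjusted p = 0.31) for Bcl6+ against DN. Of the 5329 exon bases of Cd247, 3007 (56.4%) are shared with Pou2f1 on the opposite strand, and whether strand was used in counting is not given in the sources used here, so reads of this pair may be shared. Pou2f1 itself had 39.10 and 32.25 CPM in Bcl6+ and 22.57 and 20.46 CPM in TIM-3+ TILs, a difference in the other direction (0.73, SE 0.20, adjusted p = 0.010).

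The CD8 coreceptor genes differed more between Bcl6+ and TIM-3+ TILs than any CD3 or zeta chain gene. Cd8a had 1029 and 1063 CPM in Bcl6+, 2103 and 2090 CPM in TIM-3+, and 1254 and 1258 CPM in DN TILs, with the replicates of each group close together and no overlap. Its mean was 1046 ± 23.6 CPM in Bcl6+ and 2096 ± 8.90 CPM in TIM-3+ TILs (SD, n = 2 each), a log2 fold change of -1.0 (SE 0.04, edgeR adjusted p = 6.7e-10). The TIM-3+ level was above the DN level by 0.74 (SE 0.04, adjusted p = 3.5e-08), and the Bcl6+ level differed from DN by -0.26 (SE 0.04, adjusted p = 8.9e-04). Cd8b1 followed the same order, with 675.9 and 726.7 CPM in Bcl6+, 1387 and 1337 CPM in TIM-3+, and 976.0 and 936.3 CPM in DN TILs. Again no library of one group reached another group. Its log2 fold change was -0.96 (SE 0.05, adjusted p = 9.7e-09) for Bcl6+ against TIM-3+, -0.45 (SE 0.05, adjusted p = 6.6e-05) for Bcl6+ against DN, and 0.51 (SE 0.05, adjusted p = 9.1e-06) for TIM-3+ against DN. Per length, Cd8b1 was the highest of the 10 members in TILs, at a mean of 445.0 FPKM (rank 51 of 15319 genes) in Bcl6+, 901.4 FPKM (rank 33) in TIM-3+ and 612.6 FPKM (rank 42) in DN TILs.

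Lck, the kinase carried by CD8, measured 1206 and 1156 CPM in Bcl6+, 1474 and 1455 CPM in TIM-3+, and 1345 and 1299 CPM in DN TILs. The order was that of Cd8a with a narrower spread between groups and no overlap. The Bcl6+ level was lower than the TIM-3+ level by a log2 fold change of -0.31 (SE 0.05, edgeR adjusted p = 1.3e-04). Its differences from DN were smaller, -0.16 (SE 0.05, adjusted p = 0.033) for Bcl6+ and 0.15 (SE 0.05, adjusted p = 0.032) for TIM-3+ TILs. Both small calls depended on single libraries and on the scaling. The TIM-3+ call against DN was lost without any 1 of the 4 libraries (DN or TIM-3+ replicate 1 or 2, 0.12 to 0.17), and the Bcl6+ call against DN without Bcl6+ replicate 2 (-0.13), DN replicate 1 (-0.13) or DN replicate 2 (-0.19). TIM-3+ against DN turned sign with total counts (-0.02) and TPM (-0.04), and Bcl6+ against DN was not called with total counts (-0.15, adjusted p = 0.055), TPM (-0.09, adjusted p = 0.28) or the length trend removed (-0.15, adjusted p = 0.054).

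Zap70, which docks on the phosphorylated CD3 and zeta tails, had 553.9 and 565.5 CPM in Bcl6+, 822.9 and 751.6 CPM in TIM-3+, and 555.0 and 528.5 CPM in DN TILs. TIM-3+ libraries were the high ones, and Bcl6+ and DN libraries overlapped. Its log2 fold change was -0.49 (SE 0.06, edgeR adjusted p = 2.5e-05) for Bcl6+ against TIM-3+, 0.54 (SE 0.06, adjusted p = 1.9e-05) for TIM-3+ against DN, and 0.05 (SE 0.06, adjusted p = 0.70) for Bcl6+ against DN. Lat, the adaptor, was the exception to the order of the other members, with 276.6 and 283.8 CPM in Bcl6+, 225.9 and 263.5 CPM in TIM-3+, and 303.5 and 329.8 CPM in DN TILs. TIM-3+ TILs were lowest here, and no groups overlapped. TIM-3+ was lower than DN by -0.37 (SE 0.09, adjusted p = 0.0050), a call that was lost without DN replicate 2 (-0.31, adjusted p = 0.077) or TIM-3+ replicate 1 (-0.27, adjusted p = 0.061). Neither Bcl6+ against TIM-3+ (0.20, SE 0.09, adjusted p = 0.088) nor Bcl6+ against DN (-0.18, SE 0.09, adjusted p = 0.21) was called for Lat, but Bcl6+ was called higher than TIM-3+ without TIM-3+ replicate 2 (0.31, adjusted p = 0.023).

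Thy1 encodes a glycoprotein anchored in the outer membrane that marks mouse T cells. It had 161.6 and 162.3 CPM in Bcl6+, 322.7 and 388.4 CPM in TIM-3+, and 210.3 and 217.9 CPM in DN TILs. The groups were separate, and TIM-3+ libraries were both the highest and the most spread. For Bcl6+ against TIM-3+ TILs its log2 fold change was -1.13 (SE 0.09, edgeR adjusted p = 2.8e-07), the largest of the 10 members in this comparison, and for TIM-3+ against DN TILs it was 0.73 (SE 0.09, adjusted p = 3.5e-05). Bcl6+ was lower than DN by -0.40 (SE 0.09, adjusted p = 0.0082), a call that was lost without DN replicate 1 (-0.42, adjusted p = 0.056) or DN replicate 2 (-0.38, adjusted p = 0.090). By FPKM, Thy1 was rank 946 of 15319 genes in Bcl6+, 411 in TIM-3+ and 680 in DN TILs.

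The genes that name the sorted populations followed the labels. Bcl6 had 426.1 and 404.9 CPM in Bcl6+, 14.75 and 18.12 CPM in TIM-3+, and 90.17 and 94.23 CPM in DN TILs, and Havcr2, which encodes TIM-3, had 58.51 and 33.08 CPM in Bcl6+, 1301 and 1357 CPM in TIM-3+, and 200.6 and 175.5 CPM in DN TILs. Markers of other cells differed with the groups as well. The 13 macrophage and monocyte markers, led by Cd68, summed to 288 to 326 CPM in Bcl6+, 62.4 to 78.8 CPM in TIM-3+, and 171 to 184 CPM in DN TILs, the reverse of the order of Cd8a, and 9 of 9 tested were higher in Bcl6+ than in TIM-3+ TILs. A low marker can pass the filter through the group where it is high. Itgam, not tested, ran the other way, at 3.83 and 1.02 CPM in Bcl6+ and 5.91 and 7.21 CPM in TIM-3+ TILs. None of the 13 was at 0 in any TIL group, with Csf1r at 17.2 and 12.7 CPM in Bcl6+ and 0.782 and 0.633 CPM in TIM-3+ TILs. Cd74, which antigen-presenting cells and some T cells express, led the 8 B cell markers, with 538 to 570 CPM in Bcl6+, 43.4 to 46.4 CPM in TIM-3+, and 303 to 317 CPM in DN TILs. The lymphoma and thymocyte markers, of which 6 of 7 were in the table, summed to 72.3 to 77.3 CPM in Bcl6+, 33.9 to 39.8 CPM in TIM-3+, and 64.6 to 74.7 CPM in DN TILs. Cd4 had 2.51 and 3.89 CPM in Bcl6+, 2.83 and 2.44 CPM in TIM-3+, and 11.3 and 9.82 CPM in DN TILs. Cd40lg was also highest in DN TILs (7.96 and 7.83 CPM), while Foxp3 was highest in TIM-3+ TILs (6.25 and 4.68 CPM). Cd2, a T cell adhesion receptor outside the 10 members, had 607 and 562 CPM in Bcl6+ and 498 and 505 CPM in TIM-3+ TILs, against the order of most members. The part of other cells in the members' differences was not tested.

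The scaling bore on the smaller of these differences. With total counts in place of TMM scaling, the median of all genes moved to 0.19 for Bcl6+ against TIM-3+ and to -0.18 for TIM-3+ against DN, and with TPM it moved to 0.26 and -0.19. All genes called split into 1857 higher and 1907 lower for Bcl6+ against TIM-3+ under TMM, but into 2896 and 1283 with total counts and 3455 and 1123 with TPM, and for TIM-3+ against DN into 1454 and 1291 under TMM, 869 and 2173 with total counts and 819 and 2275 with TPM. For Bcl6+ against TIM-3+, 7 members were lower and Lat was higher (0.38) with total counts, where Cd3d (-0.05, adjusted p = 0.58) and Cd247 (-0.23, adjusted p = 0.056) were not called. With TPM, 6 members were lower, Lat was higher (0.46), and Cd3d (0.03), Cd247 (-0.15) and Lck (-0.05) were not called. Cd8a, Cd8b1, Cd3e, Cd3g, Zap70 and Thy1 stayed lower in Bcl6+ than in TIM-3+ TILs under each scaling.

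Around the 10 members, 94 other genes of receptor signalling were tested in the TIL comparisons, in lists chosen for their role. For Bcl6+ against TIM-3+ TILs, 24 were higher and 41 lower, where 19.1% of all genes tested were higher and 19.6% lower. Total counts gave 34 higher and 26 lower and TPM 36 higher and 24 lower. Among 9 kinases beside Lck and Zap70, 2 were higher and 5 lower (median log2 fold change -0.44), including Fyn, the Src-family partner of Lck (-0.64, SE 0.12) and Prkch (-0.78, SE 0.13). Among 20 adaptors, 4 were higher and 8 lower (median -0.10), with Sla2, an adaptor that restrains the receptor, at 90.76 CPM in Bcl6+ against 229.0 CPM in TIM-3+ TILs (-1.34, SE 0.10) and Themis at 203.7 against 467.3 CPM (-1.20, SE 0.07). Phosphatases and ubiquitin ligases, many of which restrain the signal, had 2 of 14 higher and 6 lower (median -0.26), including Cblb (-0.89, SE 0.06) and Ubash3b (-0.90, SE 0.08). Signal effectors had 5 of 19 higher and 7 lower (median 0.01), with the inositol trisphosphate receptor gene Itpr1 higher (0.84, SE 0.10) and Cdc42 lower (-0.90, SE 0.05). Surface receptors of the synapse had 4 of 16 higher and 9 lower (median -0.21), with Itgb2, the beta chain of LFA-1, at -1.09 (SE 0.05) and the costimulator Cd226 at -2.02 (SE 0.15). Factors known to drive receptor complex genes had 7 of 16 higher and 6 lower (median -0.03), and Tcf7, which encodes TCF-1, was at 906.4 CPM in Bcl6+ against 42.43 CPM in TIM-3+ TILs (4.42, SE 0.12), with Myb (2.57, SE 0.18) and Lef1 (1.91, SE 0.16) higher too.

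For Bcl6+ against DN TILs, 15 of the 94 were higher and 23 lower, where 6.49% of all genes tested were higher and 7.69% lower. By list, 1 kinase was higher and 2 lower (median -0.15), 3 adaptors were higher and 6 lower (-0.10), 1 phosphatase or ligase was higher and 1 lower (0.13), 4 effectors were higher and 4 lower (0.00), 2 surface receptors were higher and 7 lower (-0.06), and 4 factors were higher and 3 lower (0.06). The surface receptor Cd7 was lower (-1.58, SE 0.17), as were Cd226 (-1.37, SE 0.15) and the factor Runx3 (-0.69, SE 0.08), while Ptprc, the CD45 phosphatase that activates Lck, was higher at 3068 CPM in Bcl6+ against 2509 CPM in DN TILs (0.29, SE 0.04). For TIM-3+ against DN TILs, 28 were higher and 18 lower under TMM, against 16 and 28 with total counts and 12 and 26 with TPM. Under TMM, 14.9% of all genes tested were higher and 13.2% lower. By list, 2 kinases were higher and 1 lower (median 0.14), 5 adaptors were higher and 4 lower (0.04), 5 phosphatases and ligases were higher and 2 lower (0.25), 3 effectors were higher and 2 lower (0.06), 7 surface receptors were higher and 3 lower (0.17), and 6 factors were higher and 6 lower (-0.13). Here Sh2d2a, an adaptor that binds Lck, was higher (0.83, SE 0.05), with Cblb (0.99, SE 0.06), Ubash3b (1.07, SE 0.08) and Itgb2 (0.82, SE 0.05), and Tcf7 was lower (-3.69, SE 0.11).

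Bcl6 overexpression in OT-I cells changed the receptor genes unevenly. The CD3 genes Cd3d, Cd3e and Cd3g, the adaptor Lat and Thy1 rose, Cd247 and Lck fell, and Cd8a, Cd8b1 and Zap70 were not called. Of 9669 genes tested, 48.8% were called in this experiment, 25.4% higher and 23.4% lower in Bcl6-overexpressing cells. The median log2 fold change was 0.51 over the members and 0.00 over all genes. Bcl6 itself had 93.44 and 67.07 CPM in overexpressing cells and 4.083 and 3.808 CPM in control cells (4.34, SE 0.26). For each of the 10 members the libraries of overexpressing cells did not overlap those of control cells, which includes the 3 members that were not called. The share of all genes without overlap was not counted, so this adds nothing to the tests.

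**Figure D2:**
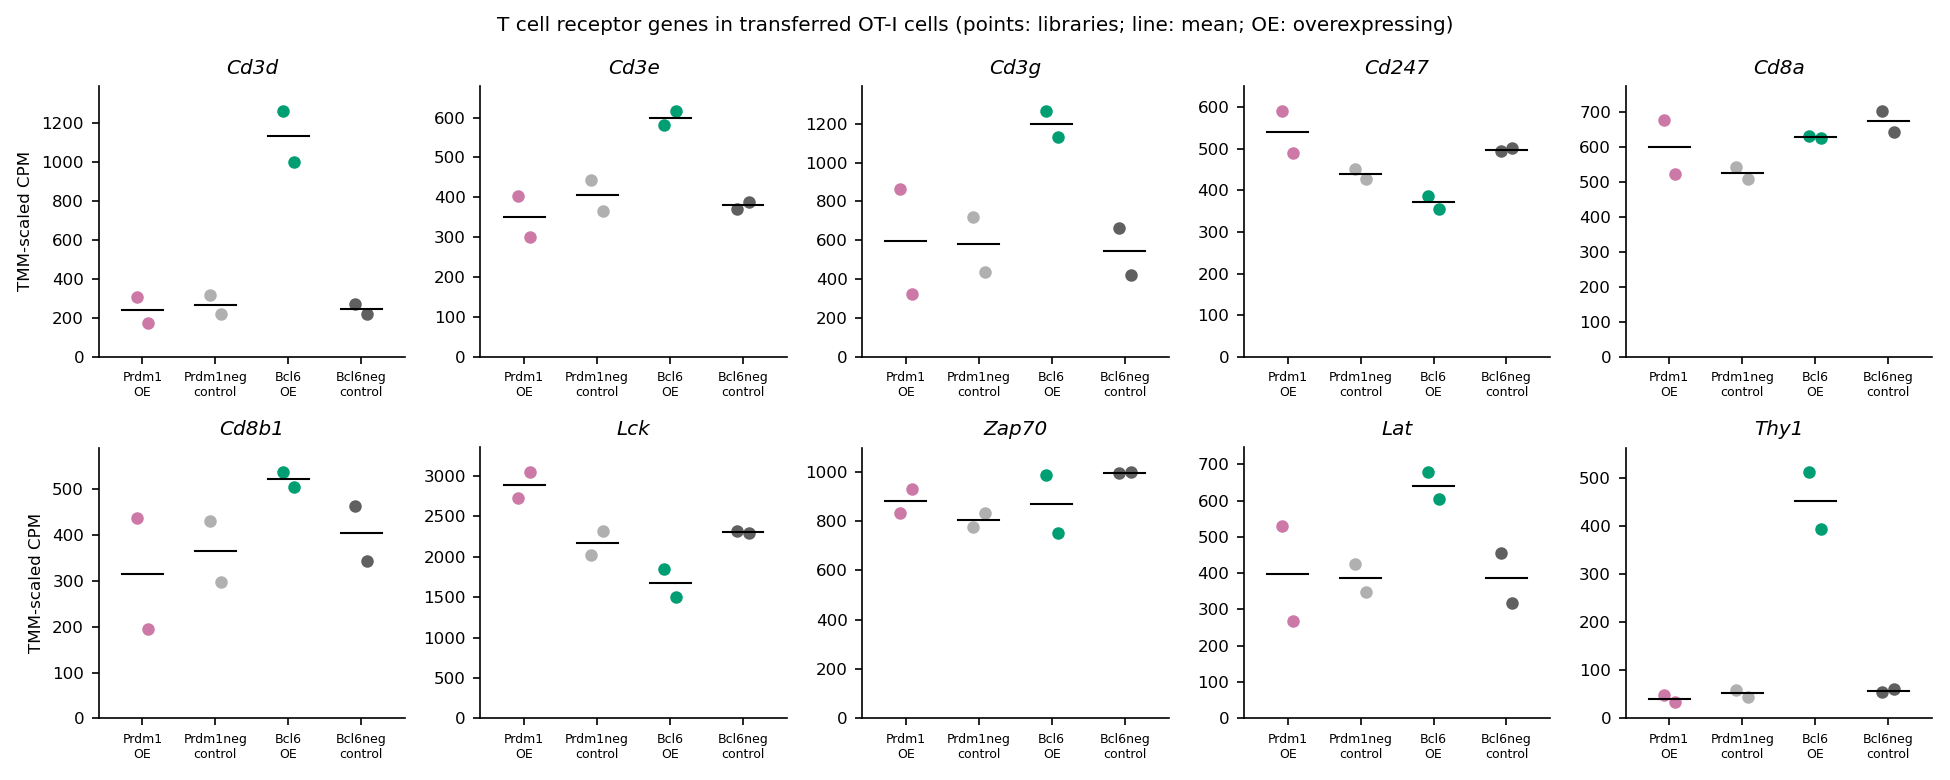
Level of each member in CPM (TMM-scaled, linear axes from 0) in the Prdm1 and Bcl6 experiments, overexpressing cells left of their own control cells, with 1 point per library and a bar at the group mean. Thy1 and Cd3d in Bcl6-overexpressing cells stand far above their controls, while in the Prdm1 experiment the replicates of several members lie far apart and the groups overlap.

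Cd3d rose most of the receptor chains, with 1261 and 996.6 CPM in Bcl6-overexpressing and 269.1 and 219.1 CPM in control cells. Both overexpressing libraries were several times above both controls, and the change was 4.62-fold (log2 fold change 2.21, SE 0.19, edgeR adjusted p = 4.0e-09). By FPKM, Cd3d was rank 57 of 15216 genes in overexpressing cells and rank 292 in control cells. Its divergent neighbour Cd3g had 1268 and 1131 CPM in overexpressing and 664.1 and 422.6 CPM in control cells, with the controls further apart than the overexpressing libraries. It rose 2.21-fold (1.14, SE 0.20, adjusted p = 7.8e-05). Cd3e, the third gene of the cluster, had 582.5 and 617.6 CPM in overexpressing and 370.4 and 389.1 CPM in control cells, and it rose 1.58-fold (0.66, SE 0.16, adjusted p = 0.0024). The call for Cd3e was lost without Bcl6neg control replicate 1 (0.62, adjusted p = 0.074) and with TPM (0.32, adjusted p = 0.13). The promoter of Cd3d printed above was the member window with the TTCNNNGAA match, and a link between that match and the change was not tested.

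Cd247 moved the other way, with 386.8 and 356.2 CPM in Bcl6-overexpressing and 495.2 and 501.2 CPM in control cells. Its change of -0.42 (SE 0.16, edgeR adjusted p = 0.038) was close to the threshold and was lost without Bcl6neg control replicate 1 (-0.43) or replicate 2 (-0.41), with the trend on gene length removed (-0.31, adjusted p = 0.11) and with the trend on GC content removed (-0.05, adjusted p = 0.79). Pou2f1, which shares exon bases with Cd247, had 20.18 and 24.99 CPM in overexpressing and 21.40 and 22.05 CPM in control cells. Cd8a had 631.1 and 625.0 CPM in overexpressing and 703.7 and 642.0 CPM in control cells (-0.10, SE 0.17, adjusted p = 0.64). Cd8b1 had 537.9 and 505.6 CPM in overexpressing and 463.3 and 344.6 CPM in control cells (0.37, SE 0.18, adjusted p = 0.089). Thus neither CD8 chain passed the test. Cd8b1 changed sign and was called lower when the length trend was removed (-0.51, adjusted p = 0.0088), and Cd8a was called lower with TPM (-0.44, adjusted p = 0.035).

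Lck had 1844 and 1505 CPM in Bcl6-overexpressing and 2325 and 2294 CPM in control cells, with both overexpressing libraries below the controls. It fell by 0.46 on the log2 scale (SE 0.17, edgeR adjusted p = 0.033), a call that was lost without Bcl6neg control replicate 1 (-0.45) or replicate 2 (-0.47). Zap70 had 987.3 and 752.1 CPM in overexpressing and 993.2 and 997.9 CPM in control cells, where 1 overexpressing library lay beside the controls and the other below them. It was not called (-0.19, SE 0.18, adjusted p = 0.38), but without Bcl6-overexpressing replicate 1 it was (-0.42, adjusted p = 0.0072), as with TPM (-0.55, adjusted p = 0.0093) and with the GC trend removed (-1.0, adjusted p = 1.1e-05). Lat had 678.3 and 604.3 CPM in overexpressing and 454.1 and 318.2 CPM in control cells and rose 1.66-fold (0.73, SE 0.18, adjusted p = 0.0026). That call was lost without Bcl6neg control replicate 2 (0.50, adjusted p = 0.16) and with the GC trend removed (0.17, adjusted p = 0.43).

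The largest change of any member in the series was that of Thy1, with 512.3 and 393.1 CPM in Bcl6-overexpressing and 55.34 and 60.12 CPM in control cells. The 2 control libraries were close and far below both overexpressing libraries, and the mean was 452.7 ± 84.3 CPM in overexpressing and 57.73 ± 3.38 CPM in control cells (SD, n = 2 each). This was a 7.84-fold rise (log2 fold change 2.97, SE 0.19, edgeR adjusted p = 5.0e-11). By FPKM, Thy1 was rank 346 of 15216 genes in overexpressing and rank 2599 in control cells. The change stayed between 2.58 and 3.14 over removal of the GC trend, removal of the length trend and each library left out. Counts per gene do not show which allele or construct a Thy1 read came from, and with no vector or reporter named in the labels these sources cannot be told apart. In the Prdm1 experiment, the overexpressing cells had no higher Thy1 than their controls (33.78 to 47.63 CPM against 44.86 to 59.59 CPM).

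**Figure D3:**
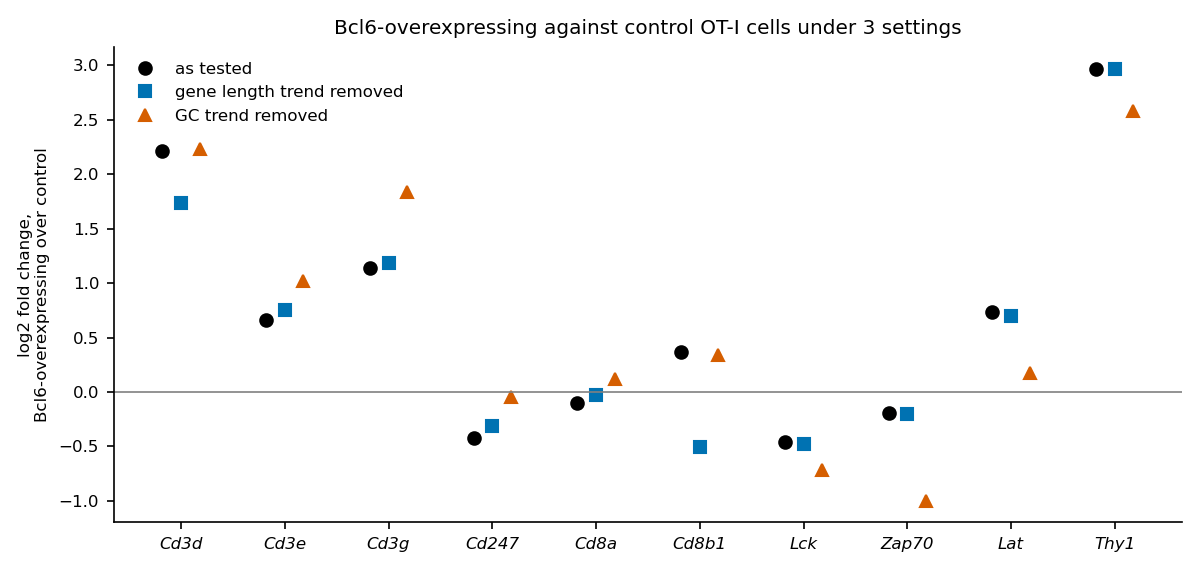
Log2 fold change of each member in Bcl6-overexpressing against control OT-I cells under 3 settings: the edgeR test on TMM-scaled counts (circles), with the gene length trend removed (squares) and with the GC trend removed (triangles). Thy1 and Cd3d lie far above 0 under each of the 3, while Cd8b1 drops below 0 with the length trend removed and Cd247, Zap70 and Lat shift with the GC trend removed.

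The libraries of this experiment also differed in ways that run across all genes. The slope of a library's log2 deviation on gene length, per doubling of length, was -0.24 and -0.16 in Bcl6-overexpressing and 0.16 and 0.24 in control cells, while TIL libraries lay between -0.04 and 0.02. With that trend removed, Cd3d (1.74), Cd3e (0.75), Cd3g (1.18), Lat (0.70) and Thy1 (2.97) remained higher and Lck lower (-0.48, edgeR adjusted p = 0.018). With the GC trend removed, an alternative added after the files were seen, Cd3d (2.23), Cd3e (1.02), Cd3g (1.84) and Thy1 (2.58) remained higher and Lck lower (-0.72). Under TPM the median of all genes was -0.32 and the calls split into 1741 higher and 3784 lower, against 2459 and 2261 under TMM, and without the filter on low values the median was -0.15.

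Markers of other cells differed here too. The 13 macrophage and monocyte markers summed to 757 to 895 CPM in Bcl6-overexpressing and 176 to 183 CPM in control cells, 10 of 10 tested were higher, and Lyz2 led them with 369 to 425 CPM against 75.9 to 80.8 CPM. Here too a low marker can pass the filter through the group where it is high, and Itgam, not tested, overlapped (2.91 and 4.42 CPM against 4.82 and 4.14 CPM). Cd74 was at 478 to 526 CPM in overexpressing and 119 to 162 CPM in control cells. Of the other B cell markers, Cd22 was higher in overexpressing cells (5.44 and 3.97 CPM against 0.0492 and 1.36 CPM). Pax5 was lower (0 and 0.0451 CPM against 1.72 and 0.658 CPM). Cd79b (5.54 and 4.47 CPM against 4.67 and 4.89 CPM) and Cd79a (1.22 CPM or less) overlapped. Neutrophil markers summed to 30.6 to 32.9 CPM in overexpressing and 2.77 to 5.31 CPM in control cells, and erythroid markers to 15.6 to 20.9 CPM and 0.984 to 1.18 CPM, with S100a8, Hba-a1, Hba-a2, Hbb-bs and Hbb-bt at 0 in the controls. The NK cell markers Tyrobp (42.4 and 25.4 CPM against 1.48 and 1.74 CPM) and Fcer1g (59.2 and 42.5 CPM against 5.21 and 5.36 CPM) were also far apart between overexpressing and control cells. Among the other NK cell markers, Klrb1c (3.71 and 7.13 CPM against 21 and 18.9 CPM), Ncr1 and Klra8 were lower in overexpressing cells. Klre1 overlapped (32.9 and 43.9 CPM against 51.1 and 38.2 CPM). Stromal and endothelial markers were lower in overexpressing cells, at 63.8 to 67.5 CPM against 130 to 142 CPM in control cells. Those of lymphoma and thymocytes summed to 26.3 to 27.0 CPM and 55.6 to 61.1 CPM, most of it Cd1d1 (20.1 and 20.2 CPM against 51.8 and 46.3 CPM). Rag1, at 0 in overexpressing and 1.62 and 2.02 CPM in control cells, Dntt and Arpp21 were lower too. Cd24a was higher (6.52 and 5.95 CPM against 2.8 and 2.96 CPM). Whether any of these cells contributed to Cd3d, Thy1 or the other members was not tested.

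Of 92 other signalling genes tested in this experiment, 21 were higher and 29 lower in Bcl6-overexpressing cells, where 25.4% of all genes tested were higher and 23.4% lower. Among kinases, 3 of 9 were higher and 3 lower (median log2 fold change -0.04), with Csk, the kinase that inhibits Lck, at 209.2 and 167.0 CPM in overexpressing and 107.6 and 106.2 CPM in control cells (0.82, SE 0.18) and Txk lower (-0.99, SE 0.19). Among adaptors, 4 of 20 were higher and 7 lower (median -0.29), and Lcp2, which encodes SLP-76, the partner of Lat, had 330.0 and 353.0 CPM in overexpressing and 694.6 and 723.9 CPM in control cells (-1.05, SE 0.17, edgeR adjusted p = 2.8e-05), while Lat itself rose. Phosphatases and ubiquitin ligases had 2 of 14 higher and 6 lower (median -0.28), with Ptprc at 1447 and 1793 CPM in overexpressing and 3339 and 3343 CPM in control cells (-1.04, SE 0.18). Effectors had 5 of 19 higher and 4 lower (median 0.03), including the diacylglycerol kinase Dgkz (1.31, SE 0.19) and the calcium channel Orai1 (1.92, SE 0.26). Surface receptors had 1 of 14 higher, Cd7 (2.10, SE 0.23), and 6 lower (median -0.23), among them Cd226 (-1.40, SE 0.21). Factors had 6 of 16 higher and 3 lower (median 0.31), with Tcf7 (1.81, SE 0.17) and Bcl11b (1.19, SE 0.18) higher and Ets1 lower (-1.31, SE 0.17). Under TPM the split was 12 higher and 45 lower.

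Prdm1 overexpression gave no call among the 10 members. The overexpressed gene was checked first: Prdm1 had 155.4 and 192.8 CPM in overexpressing and 109.0 and 89.38 CPM in control cells, higher in both libraries but not past the threshold (0.81, SE 0.19, edgeR adjusted p = 0.092). Of 9947 genes tested, 1.36% were called, 1.16% higher and 0.201% lower, and the biological coefficient of variation was 0.227, above the 0.149 of the TIL and 0.164 of the Bcl6 experiment. All genes called numbered 115 higher and 20 lower under TMM, against 191 and 84 with DESeq2's size factors, 171 and 121 with total counts, and 340 and 269 with TPM. In edgeR 0 of 10 members were called and 1 had an unadjusted p under 0.05, and limma-trend on FPKM or TPM and DESeq2 also called 0. With the replicate number as a block, 1 member, Lck, was called (0.41, adjusted p = 0.0053), and all genes called numbered 1659 in place of 135. The median log2 fold change was 0.04 over the members and 0.02 over all genes.

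Within the Prdm1 experiment several members differed more between replicates than between groups. Cd3g had 863.7 and 325.9 CPM in Prdm1-overexpressing and 719.8 and 437.1 CPM in control cells (0.04, SE 0.43, edgeR adjusted p = 0.97). Cd8b1 had 438.7 and 194.1 CPM in overexpressing and 431.0 and 298.3 CPM in control cells (-0.20, SE 0.36, adjusted p = 0.81), and Lat had 528.8 and 269.1 CPM in overexpressing and 425.3 and 348.2 CPM in control cells (0.04, SE 0.30, adjusted p = 0.95). For all 3 the overexpressing libraries lay on either side of the controls. Without Prdm1-overexpressing replicate 1, Cd3g (-0.83) and Cd8b1 (-0.92) were called lower, both at an adjusted p of 0.012, and the number of all genes called was 784; without Prdm1-overexpressing replicate 2 it was 185, and without Prdm1neg control replicate 1 or 2 it was 5 or 3. Replicate 1 was higher than replicate 2 in overexpressing cells also for Cd3d (304.8 and 174.6 CPM), Cd3e (404.1 and 299.5 CPM) and Thy1 (47.63 and 33.78 CPM). Their controls had 314.5 and 220.5 CPM of Cd3d, 444.3 and 365.2 CPM of Cd3e, and 59.59 and 44.86 CPM of Thy1, and the changes were -0.16 (SE 0.29, adjusted p = 0.81), -0.20 (SE 0.20, adjusted p = 0.63) and -0.36 (SE 0.26, adjusted p = 0.50).

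Lck and Cd247 had groups that did not overlap, but neither was called in the test reported. The share of all genes without overlap was not counted. Lck had 2727 and 3048 CPM in Prdm1-overexpressing and 2024 and 2319 CPM in control cells, a log2 fold change of 0.41 (SE 0.16) with an edgeR adjusted p of 0.23 and an unadjusted p of 0.037. Per length it was the most abundant member in these cells, at 922.1 FPKM (rank 20 of 19825 genes) in overexpressing and 742.2 FPKM (rank 29) in control cells. Cd247 had 592.1 and 489.5 CPM in overexpressing and 450.7 and 427.8 CPM in control cells (0.30, SE 0.16, adjusted p = 0.37). Zap70, at 831.0 and 927.9 CPM in overexpressing and 773.9 and 833.2 CPM in control cells, and Cd8a, at 678.0 and 523.5 CPM and 543.9 and 508.9 CPM, were not called either (0.13, SE 0.15, adjusted p = 0.70, and 0.19, SE 0.18, adjusted p = 0.60). Macrophage and monocyte markers summed to 209 to 374 CPM in overexpressing and 490 to 558 CPM in control cells, with 0 of 10 tested called, and Cd74 was at 143 to 270 CPM against 506 to 583 CPM. The lymphoma and thymocyte markers, led by Cd1d1, summed to 90.0 to 90.4 CPM in overexpressing and 39.7 to 68.9 CPM in control cells. The part of these cells in the members' values was not tested.

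Of the 92 other signalling genes tested in the Prdm1 experiment, 2 were higher and 1 lower, against 2 and 2 with total counts and 1 and 3 with TPM. Under TMM, 1.16% of all genes tested were higher and 0.201% lower. The kinase gene Prkch had 755.9 and 861.2 CPM in Prdm1-overexpressing and 298.2 and 305.8 CPM in control cells (1.42, SE 0.16, edgeR adjusted p = 0.016), 1 of 9 kinases called (median 0.04). The adaptor gene Themis, which acts beside Lat, had 634.8 and 728.3 CPM in overexpressing and 363.6 and 368.1 CPM in control cells (0.90, SE 0.15, adjusted p = 0.046), 1 of 20 adaptors called (median -0.12). Tcf7 had 26.02 and 24.42 CPM in overexpressing and 121.7 and 142.6 CPM in control cells (-2.39, SE 0.19, adjusted p = 0.0059), 1 of 16 factors called (median -0.05). None of 14 phosphatases and ligases (median 0.21), 19 effectors (-0.03) or 14 surface receptors (0.25) passed the test.

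The overexpression effects of both OT-I experiments were set against each other in 1 edgeR fit on the 8 libraries, a comparison added after the files were seen, in which 41.1% of 9803 genes were called. The Bcl6 effect exceeded the Prdm1 effect for Thy1 by 3.37 on the log2 scale (SE 0.31, edgeR adjusted p = 7.4e-06), for Cd3d by 2.41 (SE 0.36, adjusted p = 3.0e-04) and for Cd3e by 0.90 (SE 0.25, adjusted p = 0.013). It was below the Prdm1 effect for Lck, with a difference of -0.84 (SE 0.24, adjusted p = 0.015), and for Cd247, with -0.68 (SE 0.22, adjusted p = 0.028). For both of these, the values were lower than control in Bcl6-overexpressing cells and higher than control in Prdm1-overexpressing cells. The differences for Cd3g (1.15, SE 0.51, adjusted p = 0.087), Lat (0.74, SE 0.37, adjusted p = 0.13), Cd8b1 (0.62, SE 0.42, adjusted p = 0.25), Zap70 (-0.29, SE 0.25, adjusted p = 0.38) and Cd8a (-0.25, SE 0.23, adjusted p = 0.42) were not called. With the replicate block, Cd3g (1.29, adjusted p = 6.6e-04), Lat (0.81, adjusted p = 0.011) and Cd8b1 (0.71, adjusted p = 0.034) were called too, and Cd3g also with the length trend removed (1.19, adjusted p = 0.049). Thy1 and Cd3d were called without each of the 8 libraries in turn, at 3.16 to 3.61 and 2.11 to 2.83. Cd3e was not called without Prdm1neg control replicate 1 (0.76, adjusted p = 0.067) or Bcl6neg control replicate 1 (0.87, adjusted p = 0.061), and Lck not without Prdm1neg control replicate 1 (-0.74), Bcl6neg control replicate 1 (-0.83) or Bcl6neg control replicate 2 (-0.85). Without Prdm1-overexpressing replicate 1, Cd3g (1.98), Lat (1.27) and Cd8b1 (1.29) were called as well.

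**Figure D4:**
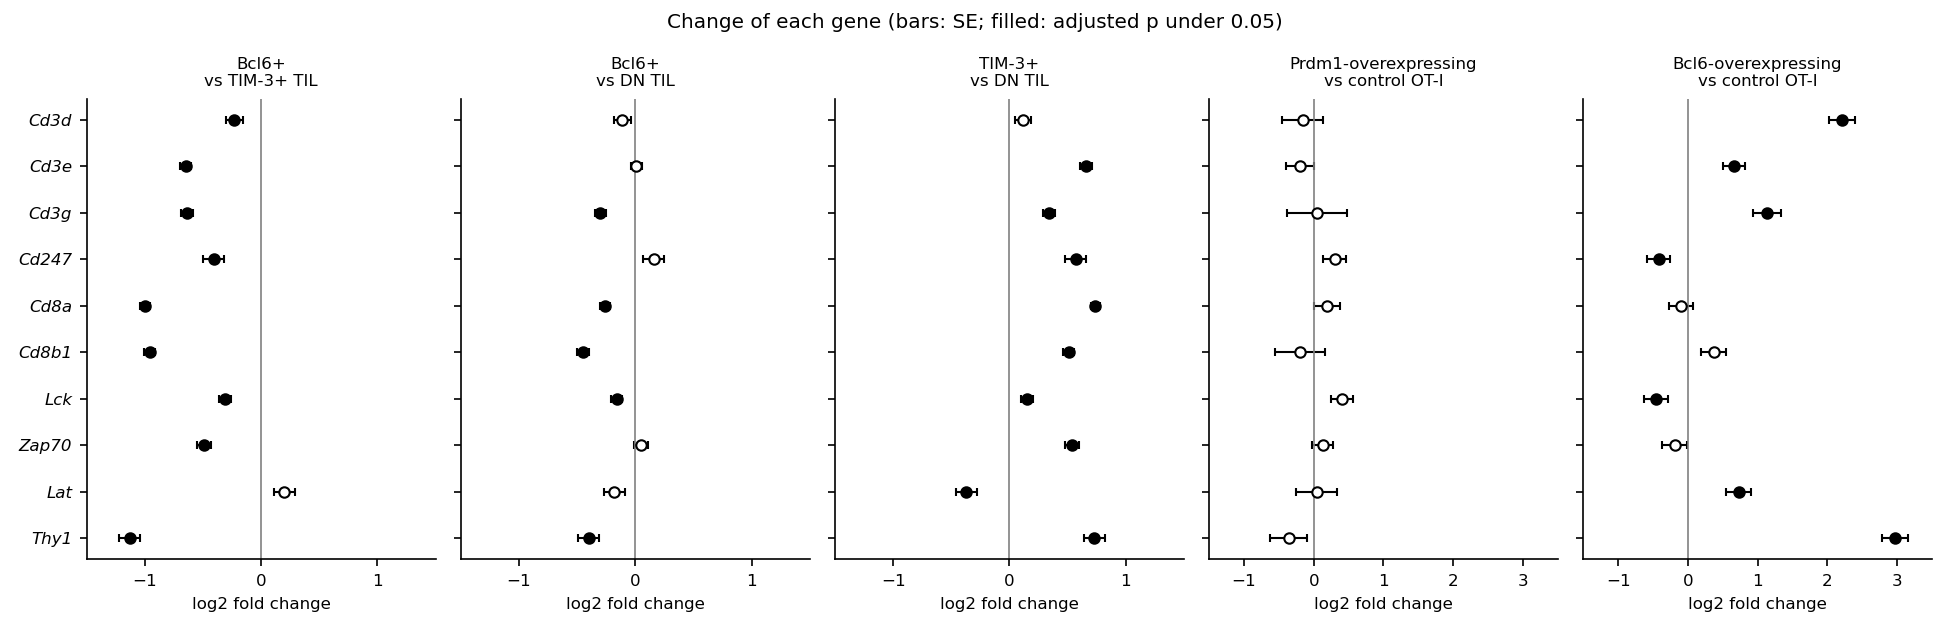
Log2 fold change of each member, with its standard error as a bar and filled points where the gene was called, in the 5 comparisons; values right of 0 are higher in the group named first. Most members lie left of 0 for Bcl6+ against TIM-3+ TILs, and Thy1 and Cd3d lie far right for Bcl6-overexpressing against control OT-I cells.

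Ratios of FPKM within a library show the balance of the chains per length, and are given as values, with no test. They are not corrected for the length trend that differed between Bcl6-overexpressing and control libraries. Cd8b1 and Cd3d (1483 and 1815 exon bases) are shorter than Cd8a and Cd3e (3637 and 4080). With that trend removed, Cd8b1 was lower in overexpressing cells, while Cd3d still rose more than Cd3e. The ratio of Cd8b1 to Cd8a was 1.61 and 1.68 in Bcl6+, 1.62 and 1.57 in TIM-3+, and 1.91 and 1.83 in DN TILs, so DN TILs had the highest ratio. It was 2.09 and 1.98 in Bcl6-overexpressing and 1.61 and 1.32 in control cells, and 1.59 and 0.909 in Prdm1-overexpressing and 1.94 and 1.44 in control cells, where the ranges overlapped. The ratio of Cd3d to Cd3e changed most, at 4.87 and 3.63 in Bcl6-overexpressing and 1.63 and 1.27 in control cells. In TILs it was 0.812 and 0.784 in Bcl6+, 0.609 and 0.583 in TIM-3+, and 0.910 and 0.818 in DN cells, lowest in TIM-3+ TILs, where Cd3e exceeded its level in Bcl6+ TILs by more than Cd3d did. Cd3g to Cd3e was 2.72 and 2.29 in Bcl6-overexpressing and 2.24 and 1.36 in control cells. Cd247 to Cd3e was 0.508 and 0.442 in Bcl6-overexpressing and 1.02 and 0.986 in control cells, against 1.12 and 1.25 in Prdm1-overexpressing and 0.777 and 0.897 in their control cells. In TILs the same ratio was 0.182 and 0.153 in Bcl6+, 0.129 and 0.155 in TIM-3+, and 0.15 and 0.152 in DN cells, with overlapping groups. In OT-I cells, the ratio of Cd247 to Cd3e was below control in both Bcl6-overexpressing libraries and above control in both Prdm1-overexpressing libraries. Neither gene was called in the Prdm1 experiment. The Cd247 call under Bcl6 overexpression was lost with the length or the GC trend removed. Cd247 also shares 56.4% of its exon bases with Pou2f1. Zap70 to Lck was 0.449 and 0.479 in Bcl6+, 0.547 and 0.506 in TIM-3+, and 0.404 and 0.398 in DN TILs, and 0.524 and 0.489 in Bcl6-overexpressing against 0.418 and 0.426 in control cells. In the Prdm1 experiment it was 0.298 and 0.298 in overexpressing and 0.374 and 0.352 in control cells.

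**Figure D5:**
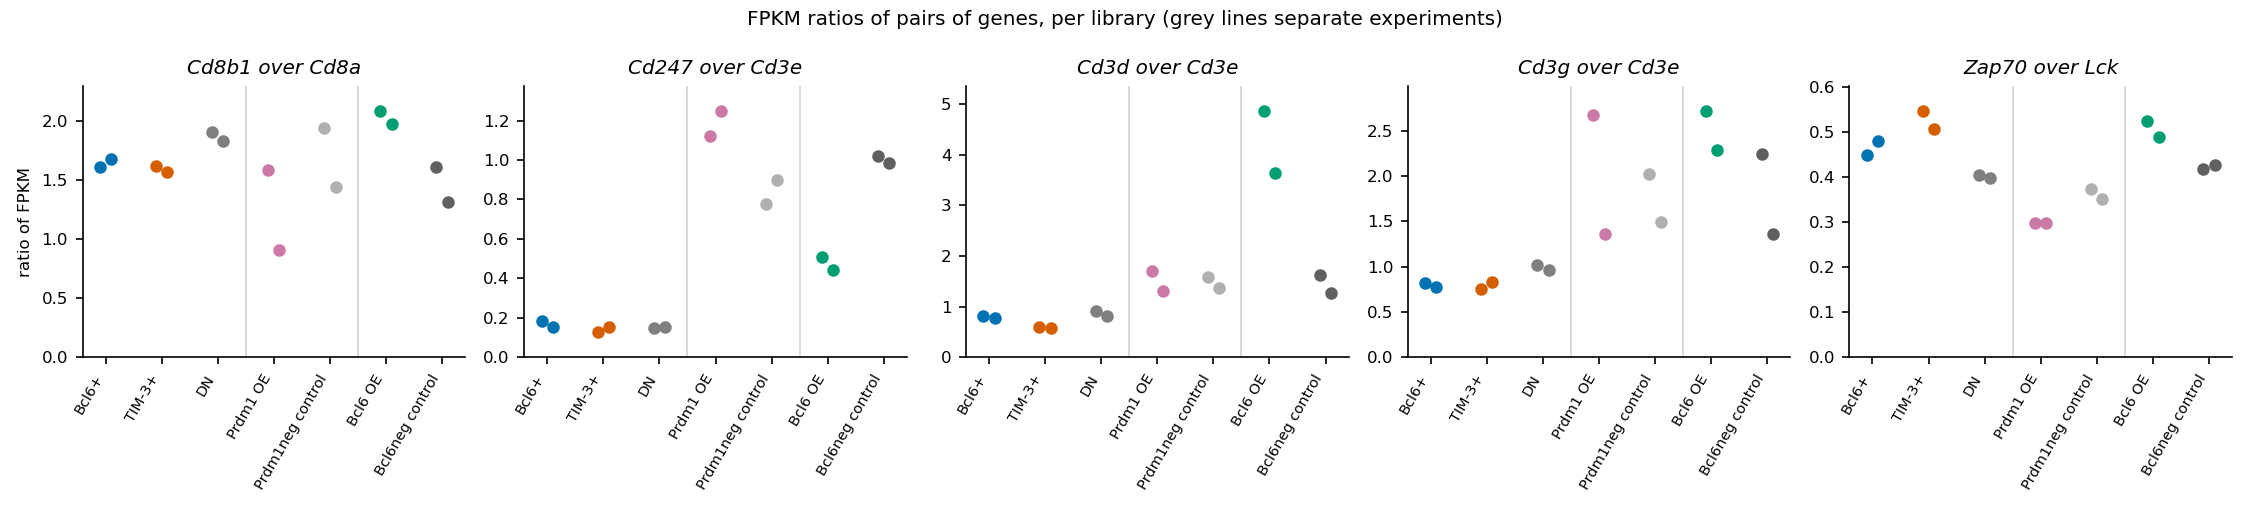
Ratios of FPKM between members in each library, by group, with overexpressing cells left of their own controls and 1 point per library (linear axes from 0, grey lines between experiments). Cd3d to Cd3e is highest and Cd247 to Cd3e lower than control in Bcl6-overexpressing cells.

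Patterns over all 14 libraries were compared through the root mean square (RMS) difference of log2 CPM, centred within each experiment, which is smallest for genes that move alike in direction and size. Among 8800 candidate genes, Lck was nearest to Selplg and Slc35a4 (RMS 0.06 each), and Zap70 to Polr3c and Pkm (0.07 each). Cd3d was nearest to Pomp (0.09), Cd3g to B2m (0.11), Cd247 to Glmp (0.09), Cd8a to Cndp2 (0.09), Cd8b1 to Susd3 (0.11), Lat to Exosc7 (0.12) and Cd3e to Sh3glb1 (0.13). Thy1 had the most distant nearest gene, Myl6 (0.19), followed by Tmsb4x and Cox5a (0.20 each). Between members, Cd247 lay closest to Zap70 (0.15) and Lck (0.17), while Cd3d, in the same cluster as Cd3g, lay 0.33 from it and 0.77 from Lck, and Thy1 lay 0.34 from Cd3d and 0.95 from Cd247. No member was among the 3 genes nearest to another member. These distances describe 7 groups in 3 experiments and were not tested.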

How the data were processed

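RNA-seq was measured in 14 libraries of sorted CD8+ T cells, with RNA taken by Trizol and libraries made by BGI, per the labels' protocols. The deposited tables pair, per the file headers, a whole-number count with an FPKM value in each library. For TILs the submitters' processing notes list Bowtie2, Subread, featureCounts, DESeq2 and edgeR; for OT-I cells they list featureCounts, HISAT2, DESeq2 and RSEM, both with mm10. The sources used here give neither the role nor the version of these tools, nor whether strand was used. The deposited FPKM matched the count divided by exon length and by a scaled library total, with library factors from 0.898 to 1.07.

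The count test was edgeR 4.0.16's quasi-likelihood F test in R 4.3.3, with TMM scaling, on genes averaging 1 FPKM or more in a fit, two-sided, with Benjamini-Hochberg adjustment over all genes tested and a threshold of 0.05. A single fit held the 6 TIL libraries, and separate fits the 4 libraries of either OT-I experiment; no level was compared across experiments. SE was obtained by dividing the size of the log2 fold change by the root of F. CPM values are TMM-scaled, and ± is the SD. Alternatives were DESeq2 1.42.0 and its size factors, total counts, no filter, limma 3.58.1 (limma-trend) on log2(FPKM + 1) and log2(TPM + 1), removal of a trend on gene length or GC content, a replicate block, and each library left out. The script was tested on simulated counts. Of the 27 pairs of libraries compared, 0 were identical.

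The members and lists were chosen with earlier results of these data known. All members were named in every comparison; of each signalling list, up to 3 genes with the smallest p could be named; of each marker list, the gene with the highest level; and the 3 genes nearest to each member. Bcl6, Prdm1, Havcr2, Pou2f1 and single markers beside these were named after their values were seen. T cell receptor constant and variable genes were not analysed here, and some genes that the naming rule would give are not reported here. Same-numbered libraries were checked for shared deviations and had correlations of 0.01 to 0.04 among TILs, 0.28 under Prdm1 and -0.06 under Bcl6 overexpression; as the labels tie the numbers to no animal or batch, no block was used in the test reported.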

Additional observations from a re-analysis of the deposited data

Results flagged for a closer look

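In 1 edgeR fit on the 8 OT-I libraries, 41.1% of 9803 genes were called in a test of the difference between the overexpression effects. The effect of Bcl6 overexpression differed from that of Prdm1 overexpression for 5 of the 10 members, a share near that of all genes. The largest difference was that of Thy1, 3.37 on the log2 scale (SE 0.31, edgeR adjusted p = 7.4e-06), where both Bcl6-overexpressing libraries were above their controls and the Prdm1-overexpressing libraries were not. Cd3d differed by 2.41 (SE 0.36, adjusted p = 3.0e-04), again with both Bcl6-overexpressing libraries above their controls. Cd3e differed by 0.90 (SE 0.25, adjusted p = 0.013), higher than control in both Bcl6-overexpressing libraries. Lck differed by -0.84 (SE 0.24, adjusted p = 0.015), with Bcl6-overexpressing libraries below and Prdm1-overexpressing libraries above their own controls. Cd247 differed by -0.68 (SE 0.22, adjusted p = 0.028) in the same way, a call that was lost under 6 of the 8 fits that left out 1 library, with a range of -0.77 to -0.57, and with the length trend removed (-0.54, adjusted p = 0.065). The experiments were separate, with their own control cells, so an effect of the experiment on the response cannot be told apart from the overexpressed gene.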

How the results depend on the processing

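Over 730 values of single members under another setting, 634 kept their direction and their side of the threshold, 37 kept the direction and lost the call, 14 gained one, and 45 changed sign. Every member was above the filter of 1 FPKM in each fit, and precision rests on 2 libraries a group.

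Most sign changes were of values near 0 in the Prdm1 experiment. There Cd3g was -0.02 with DESeq2's size factors and in DESeq2, -0.08 with total counts and with the replicate block, -0.11 with no filter and with block and length trend together, -0.18 with FPKM, -0.14 with TPM, -0.01 with the length and -0.19 with the GC trend removed. Lat was -0.01 with DESeq2's size factors and in DESeq2, -0.07 with total counts, -0.11 with no filter, -0.13 with FPKM, -0.08 with TPM, -0.03 with the block and -0.04 with block and length trend, and Zap70 was -0.03 with no filter. In TILs, Cd3d was 0.03 with TPM for Bcl6+ against TIM-3+; Cd3e was -0.02 with no filter, -0.01 with FPKM and 0.00 with the length trend, the GC trend or block and length trend removed for Bcl6+ against DN. For TIM-3+ against DN, Cd3d was -0.04 with total counts and -0.06 with TPM, and Lck -0.02 and -0.04. Under Bcl6 overexpression, Cd8a was 0.01 with no filter and 0.12 with the GC trend removed, and Cd8b1 was -0.51 with the length trend removed, with or without the block. The difference of the overexpression effects for Cd8b1 was -0.40 with the length trend removed. The cause of these shifts was not tested.

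All genes called by Prdm1 overexpression numbered 135, against 275 with DESeq2's size factors, 292 with total counts, 44 with no filter, 609 with TPM, 586 in DESeq2, 453 with the length and 223 with the GC trend removed. The labels say that overexpressing and control cells were co-transferred but tie no number to a host, and the check of pairing rests on 2 pairs in each OT-I experiment. The length slope followed the number in the Prdm1 experiment, at -0.09 and -0.06 in replicate 1 and 0.11 and 0.05 in replicate 2 of overexpressing and control cells, a hint from the data, not the design. With the replicate block 1659 genes were called, and 1233 with block and length trend; 1 member, Lck (0.41, adjusted p = 0.0053), was called with the block, and 1 with block and length trend. In the Bcl6 experiment the block ended the calls of Cd247 (-0.42) and Lck (-0.47).

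With 1 library left out, 8 to 10 members were called for Bcl6+ against TIM-3+, 3 to 5 for Bcl6+ against DN, 7 to 8 for TIM-3+ against DN, 0 to 2 for Prdm1 and 4 to 8 for Bcl6 overexpression; all genes called numbered 3120 to 3384, 736 to 1180, 1699 to 2210, 3 to 784 and 3252 to 5232. Members that changed sign were Cd3e for Bcl6+ against DN (-0.03 to 0.04) and, in the Prdm1 experiment, Cd3d (-0.62 to 0.12), Cd3g (-0.83 to 0.50), Cd8a (-0.02 to 0.29), Cd8b1 (-0.92 to 0.19), Zap70 (-0.03 to 0.20) and Lat (-0.53 to 0.37).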

Other observations

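Markers of further cell types, outside the receptor complex, gave these values. The 6 dendritic cell markers summed to 54.4 to 72.5 CPM in Bcl6+, 65.1 to 68.7 CPM in TIM-3+, and 80.9 to 89.8 CPM in DN TILs. Ctla4 led the markers of CD4 and regulatory T cells in every group, with 451 to 479 CPM in Bcl6+, 562 to 582 CPM in TIM-3+ and 581 to 598 CPM in DN TILs. Stromal and endothelial markers, led by Pecam1, summed to 85.6 to 110 CPM in Bcl6+, 38.0 to 46.1 CPM in TIM-3+, and 77.1 to 90.4 CPM in DN TILs. Neutrophil markers summed to 41.2 to 54.9 CPM in Prdm1-overexpressing and 3.08 to 4.18 CPM in control cells, of which Mmp9 made up 36.6 to 50.3 CPM in overexpressing cells.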
